A study of Homo sapiens with 2 samples.

Results

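Genes that mark microglia, the resident macrophages of the brain, were followed between 2 RNA-seq libraries of macrophages grown from human induced pluripotent stem cells. The set was fixed by symbol and holds 8 genes of the 46865 loci in the deposited count table: CX3CR1, TMEM119, SALL1, GPR34, OLFML3, APBB1IP, AIF1 and SLCO2B1. Cells of the wild-type line 1231A3 (HPS0381) were differentiated with cytokines and inhibitors over 30 days into primitive macrophages, cells of the embryonic kind that gives rise to microglia, and both libraries come from this 1 line. The Control library carries no agonist in its labels, and no vehicle is stated. The PNU282987 library came from cells given 100 µM of PNU282987, an agonist of the α7 nicotinic acetylcholine receptor, for 12 hours. Its title, library name and protocol name that compound, while its treatment field names amyloid β; it was grouped by its title. Each group is a single library, so nothing below is checked by replicates, and every interval is a 95% interval of counting error that leaves out the spread between cultures.

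Microglia arise from yolk sac macrophages that settle in the embryonic brain, where TGF-β and other signals of the tissue install a gene programme that macrophages elsewhere largely lack. CX3CR1 is the receptor for fractalkine (CX3CL1), a chemokine that neurons hold on their surface. TMEM119, a transmembrane protein, and SALL1, a zinc finger repressor, are among the markers that best separate microglia from other macrophages, and in the brain GPR34, OLFML3, APBB1IP, AIF1 and SLCO2B1 are also read mostly from microglia, although AIF1 and SLCO2B1 are common in other macrophages.

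The libraries held 39316475 reads in Control and 36134391 in PNU282987, and levels are given as CPM, reads scaled to a common library size with TMM factors. All 12 macrophage markers were measured in both libraries, CSF1R at 1291 and 1059 CPM and CD68 at 1692 and 1176 CPM in Control and PNU282987. Of these 12, 5 had a ratio above 1 and 7 a ratio under 1, and CD14, the lipopolysaccharide co-receptor, differed most, at 96.3 CPM in Control against 539 CPM (log2 ratio 2.48, 2.43 to 2.54). Markers of other cell types were also read, and bulk RNA cannot show which cells made them. The 8 mesenchymal markers summed to 2706 and 3052 CPM, led by COL3A1 at 1163 and 1349 CPM. The 8 granulocyte and progenitor markers summed to 846 and 686 CPM, and 1 of them, CSF3R, is also listed below among genes enriched in microglia. The 8 endothelial markers summed to 153 and 107 CPM, with 4 of them under a mean of 1 CPM. The 8 neural markers summed to 57.2 and 48.0 CPM. Of these, 4 reached 1 CPM, although PAX6, a neural progenitor factor, had 0 reads in both libraries. The 8 pluripotent markers summed to 1.36 and 2.30 CPM, and POU5F1, which defines pluripotent cells, had 0 reads in both libraries.

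Promoters are shown for 3 genes that differed most among those with at least 1 CPM: CX3CR1, which stood lowest in the PNU282987 library, OLFML3, the next lowest, and APBB1IP, which stood highest. Each runs from 250 bases before to 50 bases after an annotated start, 5′ to 3′ on the gene's strand, from RefSeq on GRCh38.p14. Capitals mark GAGGAA on either strand, the core letters bound by PU.1, the ETS factor that specifies macrophages. CX3CR1 has 3 annotated starts among the promoter windows used here, and the gene counts merge them, so reads from one start cannot be told from those of another. The counts merge 4 transcripts, and on the minus strand the locus begins at 39292966, outside these windows. That end has no window here and is not in the motif counts. The windows are chr3:39281686-39281985 (minus strand), chr3:39281224-39281523 (minus) and chr3:39280392-39280691 (minus) for CX3CR1, chr1:113979224-113979523 (plus) for OLFML3 and chr10:26438091-26438390 (plus) for APBB1IP.
CX3CR1 start 1: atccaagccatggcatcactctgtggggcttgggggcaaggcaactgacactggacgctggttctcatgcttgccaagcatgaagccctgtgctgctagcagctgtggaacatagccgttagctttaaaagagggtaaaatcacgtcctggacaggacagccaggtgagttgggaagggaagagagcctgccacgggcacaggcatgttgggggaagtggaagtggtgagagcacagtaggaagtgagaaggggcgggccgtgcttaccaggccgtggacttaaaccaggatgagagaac
CX3CR1 start 2: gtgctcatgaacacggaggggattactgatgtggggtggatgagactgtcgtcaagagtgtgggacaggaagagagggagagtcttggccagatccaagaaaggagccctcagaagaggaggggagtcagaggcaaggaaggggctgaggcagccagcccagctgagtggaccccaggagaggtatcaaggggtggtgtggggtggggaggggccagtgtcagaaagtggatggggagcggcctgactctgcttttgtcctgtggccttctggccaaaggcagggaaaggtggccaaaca
CX3CR1 start 3: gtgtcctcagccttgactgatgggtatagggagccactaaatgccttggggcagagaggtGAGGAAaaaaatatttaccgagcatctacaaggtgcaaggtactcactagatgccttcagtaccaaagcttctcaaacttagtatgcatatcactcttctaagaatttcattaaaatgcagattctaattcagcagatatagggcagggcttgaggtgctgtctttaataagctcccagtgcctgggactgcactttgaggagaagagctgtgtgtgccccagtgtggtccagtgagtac
OLFML3: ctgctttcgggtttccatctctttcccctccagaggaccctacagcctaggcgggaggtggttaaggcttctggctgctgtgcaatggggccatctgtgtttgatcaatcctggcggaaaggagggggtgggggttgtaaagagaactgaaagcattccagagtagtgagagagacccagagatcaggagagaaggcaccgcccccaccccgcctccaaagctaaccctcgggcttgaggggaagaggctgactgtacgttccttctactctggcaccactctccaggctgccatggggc
APBB1IP: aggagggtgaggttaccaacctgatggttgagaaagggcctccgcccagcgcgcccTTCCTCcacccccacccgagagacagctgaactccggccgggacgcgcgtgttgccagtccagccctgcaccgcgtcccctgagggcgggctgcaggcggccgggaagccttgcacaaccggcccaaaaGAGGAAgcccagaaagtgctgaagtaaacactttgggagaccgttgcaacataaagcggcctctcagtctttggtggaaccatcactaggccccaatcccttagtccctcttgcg

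The first 2 CX3CR1 windows and the OLFML3 window hold no GAGGAA, the third CX3CR1 window holds 1 and the APBB1IP window 2. Promoter windows were found for 5 of the 8 genes, 9 in all, and 6 of the 9 windows hold GAGGAA, against 27.9% of the 35116 windows of all genes. AIF1 has 3 copies in 1 window and 1 in its other window, and each of the 2 SLCO2B1 windows has 1. None of the 9 windows holds TGANTCA on either strand, the letters that include the AP-1 site, which 7.71% of all windows hold. These matches describe letters in short windows and do not show binding.

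CX3CR1 (Gene ID 1524; chromosome 3, 39263494 to 39292966, GRCh38) was the member furthest from equality and the only one past the size rule. It had 1160 reads in Control and 181 in PNU282987. The level was 29.8 CPM (exact Poisson interval 28.1 to 31.5) in Control and 4.96 CPM (4.27 to 5.74) in PNU282987, so the intervals lie far apart. The PNU282987 library held 16.7% of the Control level, a log2 ratio of -2.58 with an exact Clopper-Pearson interval of -2.82 to -2.36, which puts the Control level 5.12-fold to 7.05-fold above that of PNU282987. Among the 14269 loci whose mean reached 1 CPM, 33 had a lower ratio of PNU282987 to Control, or 0.231%. In bulk RNA, fewer cells that express a gene and less of its RNA per cell cannot be told apart, here and for each gene below.

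The size rule asks for a 2-fold difference, a counting interval that excludes equality and a mean of at least 1 CPM. Over all loci compared, 5.77% passed it in either direction, 2.96% as higher and 2.81% as lower in PNU282987. Of the 8 microglial genes, 7 reached a mean of 1 CPM, and 1 of these 7 passed, as lower. The counting interval excluded equality for all 7, against 67.1% of all loci compared. For 5 genes it lay wholly below equality, against 33.6% of all loci, and for 2 wholly above, against 33.5%. At this depth an interval that excludes equality is common and sets no gene apart. The median log2 ratio over the 7 was -0.49, beside -0.0084 over all loci compared, whose middle part from the 25th to the 75th percentile ran from -0.26 to 0.26. SALL1 is not in that median.

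**Figure D1:**
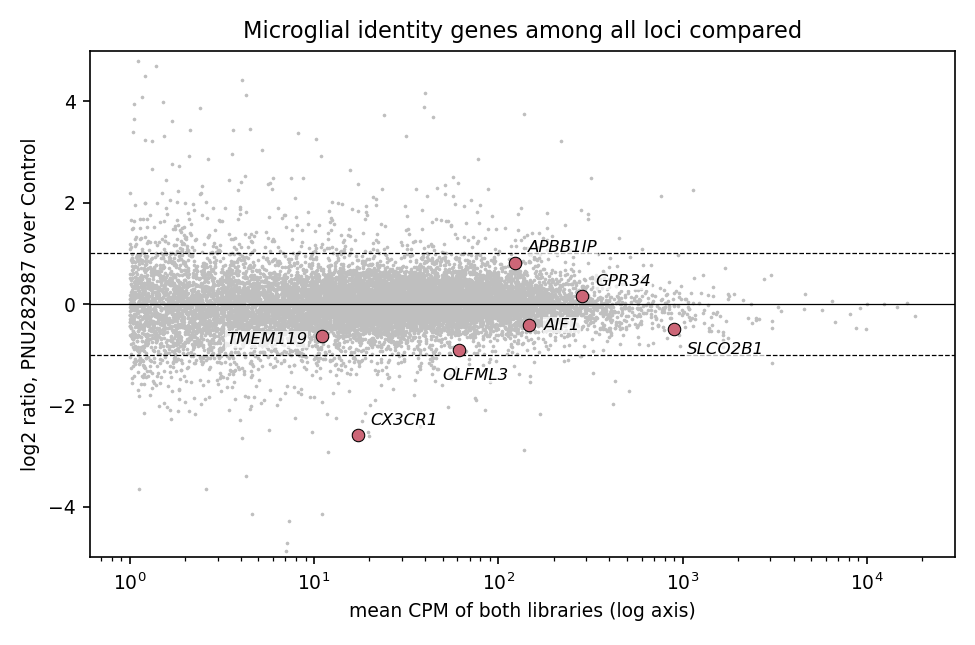
Each grey point is a locus that reached 1 CPM on average and had reads in both libraries, with its mean level on a log axis and its log2 ratio of PNU282987 over Control on the vertical axis. Red points are the 7 microglial genes compared, dashed lines mark 2-fold, and 15 of the 14234 loci lie outside the plotted range. CX3CR1 lies at -2.58, below the band that holds the other 6 genes.

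The transmembrane marker TMEM119 (Gene ID 338773; chromosome 12, 108589851 to 108598084) had 523 reads in Control and 318 in PNU282987. Its level was 13.4 CPM (12.3 to 14.6) and 8.72 CPM (7.79 to 9.74), lower in PNU282987 by a log2 ratio of -0.62 (-0.83 to -0.42). The intervals do not overlap, and the difference is under 2-fold.

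SALL1 (Gene ID 6299; chromosome 16, 51135982 to 51152334), the repressor on which microglial identity depends in mice, was close to unmeasured. It had 8 reads in Control and 3 in PNU282987, which is 0.205 CPM (0.0886 to 0.405) and 0.0823 CPM (0.0170 to 0.240). On the log2 scale the ratio was -1.32 with an interval of -3.87 to 0.74, so a difference was not detectable at this depth. The other 3 SALL genes were also scarce, SALL2 with 39 and 48 reads, SALL3 with 20 and 26 and SALL4, a gene of pluripotent cells, with 44 and 55. None of the 4 SALL genes had a counting interval that excluded equality.

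GPR34 (Gene ID 2857; chromosome X, 41688973 to 41697275), a receptor for lysophosphatidylserine, was the member nearest equality. It had 10568 and 10988 reads, a level of 271 CPM (266 to 276) in Control and 301 CPM (296 to 307) in PNU282987, and a log2 ratio of 0.15 (0.11 to 0.19). With a trend over GC content and transcript length removed the log2 ratio was 0.023 (-0.015 to 0.062), which includes equality. The gene lies within CASK, which runs on the opposite strand with 699 and 785 reads. Whether counting used strand is not given in the sources used here, but CASK held far fewer reads than GPR34.

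OLFML3 (Gene ID 56944; chromosome 1, 113979474 to 113982253), a secreted olfactomedin-like protein, had 3102 reads in Control and 1539 in PNU282987. Its level was 79.6 CPM (76.8 to 82.5) and 42.2 CPM (40.1 to 44.4), lower in PNU282987. The Control level was 1.89-fold that of PNU282987 (1.77 to 2.01), short of the 2-fold rule with an interval that reaches it. OLFML3 is also made by mesenchymal cells, and of the 8 mesenchymal markers none passed the size rule, with 6 above and 2 under a ratio of 1 and a median log2 ratio of 0.14. The part of these cells in the OLFML3 value was not tested.

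APBB1IP (Gene ID 54518; chromosome 10, 26438341 to 26567803), the adaptor RIAM that links active RAP1 to talin and integrins, was the one member clearly higher in PNU282987. It had 3503 and 5759 reads, or 89.9 CPM (86.9 to 92.9) in Control and 158 CPM (154 to 162) in PNU282987. The ratio was 1.76-fold (1.68 to 1.83), under the 2-fold rule, and 4.76% of the loci compared had a higher ratio.

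AIF1 (Gene ID 199; chromosome 6, 31615234 to 31617015) encodes IBA1, the calcium-binding, actin-bundling protein used to stain microglia. Its 6583 reads in Control and 4604 in PNU282987 correspond to 169 CPM (165 to 173) and 126 CPM (123 to 130), a log2 ratio of -0.42 (-0.47 to -0.37). SLCO2B1 (Gene ID 11309; chromosome 11, 75151107 to 75206549), an organic anion transporter, had the most reads of the set, 41107 and 27469, or 1055 CPM (1045 to 1065) and 753 CPM (745 to 762). Its log2 ratio was -0.49 (-0.51 to -0.46). Both genes were lower in PNU282987 by less than 1.5-fold, and 15.1% and 12.0% of the loci compared had a lower ratio than AIF1 and SLCO2B1.

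The order of levels among the 8 genes was taken per kilobase, using the longest GENCODE transcript matched to each gene. In Control the order was AIF1, SLCO2B1, GPR34, OLFML3, APBB1IP, CX3CR1, TMEM119 and SALL1. AIF1 at 238 CPM per kilobase (232 to 243) and SLCO2B1 at 235 (232 to 237) overlapped in Control, and all other neighbours in that order lay apart. In PNU282987 adjacent genes changed places at 2 points. APBB1IP, at 57.0 CPM per kilobase (55.5 to 58.5), stood above OLFML3 at 21.5 (20.5 to 22.6), where Control had 32.4 (31.4 to 33.5) and 40.6 (39.2 to 42.0). TMEM119, at 3.22 CPM per kilobase (2.88 to 3.60), stood above CX3CR1 at 1.53 (1.31 to 1.76), where Control had 4.96 (4.54 to 5.40) and 9.15 (8.63 to 9.69). SALL1 was again last, at 0.0157 CPM per kilobase (0.00323 to 0.0458), and no neighbours in the PNU282987 order overlapped.

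**Figure D2:**
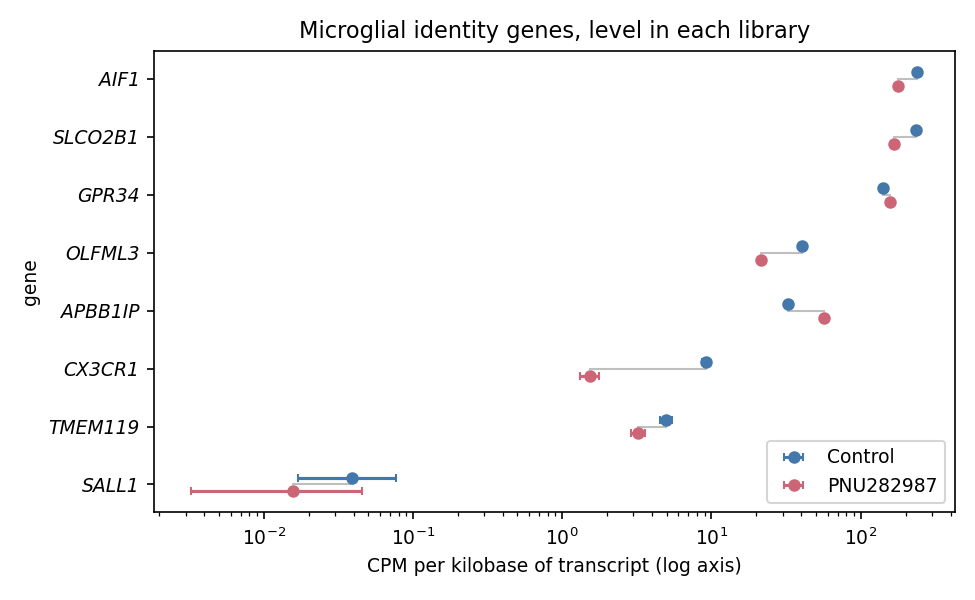
Levels of the 8 genes in CPM per kilobase of transcript on a log axis, with Control in blue and PNU282987 in red and bars for exact Poisson 95% intervals, which are narrower than most points. CX3CR1 spans from 9.15 in Control to 1.53 in PNU282987, where it stands below TMEM119, and OLFML3 and APBB1IP change places.

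Comparing the genes with each other within a library removes the scaling of the libraries altogether. CX3CR1 had 2.22 reads for each read of TMEM119 in Control and 0.569 in PNU282987, a log2 difference of -1.96 with an exact conditional interval of -2.27 to -1.65. Against APBB1IP the difference was -3.40 (-3.64 to -3.16), the greatest of the set. Against OLFML3, the next lowest gene with at least 1 CPM, it was -1.67 (-1.92 to -1.42). TMEM119, AIF1 and SLCO2B1 kept closer proportions: TMEM119 against AIF1 differed by -0.20 (-0.41 to 0.0094) and against SLCO2B1 by -0.14 (-0.34 to 0.069), both including equality, and AIF1 against SLCO2B1 by 0.066 (0.0067 to 0.12). Of the 21 pairs without SALL1, 19 had an interval that excluded equal proportions. The pairs reuse the same 7 genes, and the share over pairs of all loci was not computed. For single loci compared, the interval excluded equality in 67.1%, so at this depth the count sets no gene apart. CX3CR1 made up 1.74% (exact binomial interval 1.64 to 1.85) of all reads of the 8 genes in Control and 0.356% (0.306 to 0.412) in PNU282987, while APBB1IP made up 5.26% and 11.3%.

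The ratios were also computed under 8 other settings of scaling, counting, overlap and base composition. The log2 ratio of CX3CR1 ran from -2.63 to -2.56 under them, and that of APBB1IP, the member furthest above equality, from 0.81 to 0.88. Neither gene overlaps another locus, so the overlap settings could not change these values. Halved counts can move a ratio only through rounding and the refitted scaling.

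**Figure D3:**
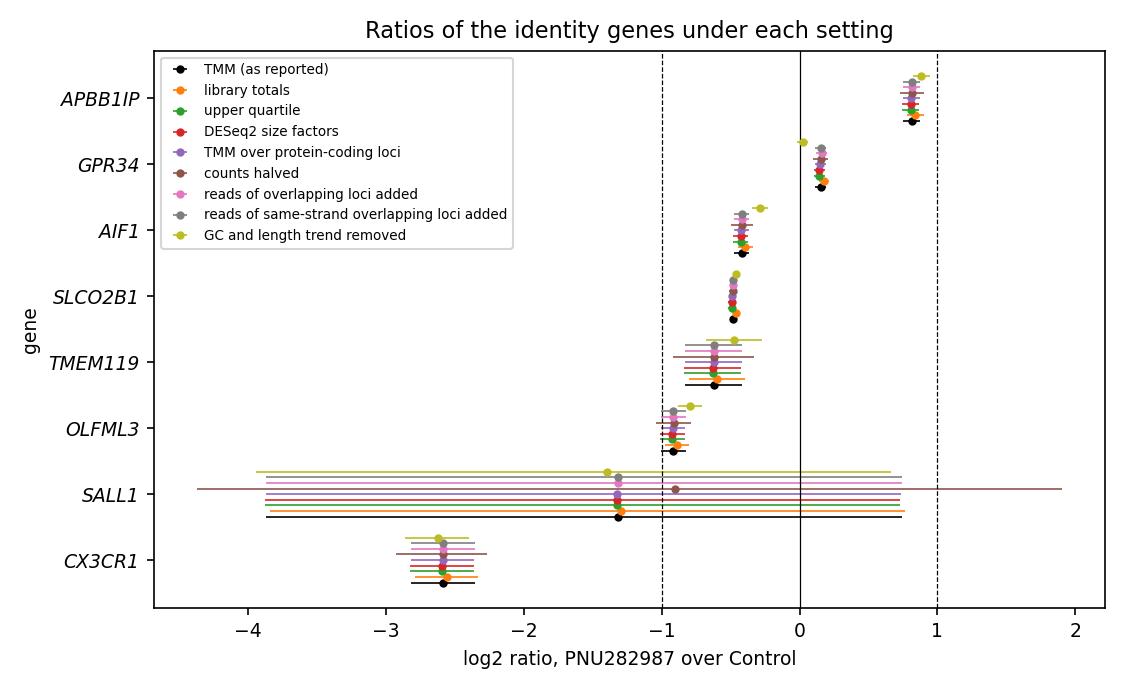
Log2 ratios of PNU282987 over Control for the 8 genes under the reported TMM scaling (black) and 8 other settings (colours), with bars for 95% counting intervals and dashed lines at 2-fold. CX3CR1 lies beyond 2-fold under every setting shown, and the intervals of SALL1 span equality under each.

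The count table lists the transcripts merged into each gene. CX3CR1, TMEM119, SALL1, OLFML3 and APBB1IP were counted over reference transcripts alone. GPR34 included 5 assembled transcripts of class j, which share a splice junction with the reference, AIF1 included 1 of class j, and SLCO2B1 included 1 of class j and 1 of class k, which contains a reference transcript. The counts are per gene, so the reads of these forms cannot be separated.

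Genes beside the members on their chromosomes were read from the same libraries. The nearest loci of at least 1 CPM on either side of CX3CR1 were CSRNP1, a nuclear protein gene at 13.4 and 12.6 CPM, and SLC25A38, a mitochondrial glycine carrier at 18.8 and 18.0 CPM, and both intervals of the ratio included equality. SELPLG, which encodes the P-selectin ligand PSGL-1, lies 23810 bases from TMEM119 and was lower in PNU282987, with 119 CPM in Control against 32.0 CPM (log2 ratio -1.90, -1.99 to -1.80). GPR82, an orphan receptor 26905 bases from GPR34, was higher at 10.5 and 20.5 CPM, just under 2-fold with a log2 ratio of 0.97 (0.80 to 1.15). It also lies within CASK, and adding the reads of that locus moved its log2 ratio to 0.57. LST1, a leukocyte gene near AIF1, had 64.1 and 42.5 CPM and HIPK1, a kinase gene 1604 bases from OLFML3, 108 and 145 CPM.

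By distance in log2 CPM over both libraries, with no scaling for transcript length, the protein-coding genes nearest to CX3CR1 were LAMP3, RASAL1, CIITA, TIFAB and DCANP1. This likeness rests on 2 libraries. LAMP3, a lysosomal membrane protein of mature dendritic cells, lay nearest at 27.7 and 4.75 CPM, a distance of 0.12. RASAL1, a Ras GTPase-activating protein, had 34.0 and 5.57 CPM. CIITA, the regulator of MHC class II transcription, had 33.7 and 5.82 CPM, but adding the reads of the locus it overlaps moved its log2 ratio from -2.53 to -1.11. TIFAB and DCANP1 overlap each other on chromosome 5, at 30.4 and 6.17 CPM and at 21.9 and 4.58 CPM, so the division of reads between them is uncertain.

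Of the ligand and the proteins that act with CX3CR1, the ligand was scarce and the rest stayed within 2-fold. CX3CL1, the ligand, had 23 reads in Control and 29 in PNU282987, below 1 CPM, with a log2 ratio of 0.43 (-0.41 to 1.29) that includes equality. None of the 9 compared genes of the fractalkine axis passed the size rule, and their median log2 ratio was -0.0017, or -0.20 once the GC and length trend was taken out. That correction turned the direction of some of these genes. The sheddases that release the ligand, ADAM10 at 193 and 238 CPM and ADAM17 at 89.6 and 111 CPM, had log2 ratios of 0.30 and 0.31, which the correction made -0.20 and 0.14. The inhibitory G protein subunit GNAI2, through which chemokine receptors signal, had 904 and 660 CPM, a log2 ratio of -0.45 (-0.48 to -0.43), or -0.30 with the correction. GNAI3 had 121 and 133 CPM, and its log2 ratio of 0.13 turned to -0.58 (-0.64 to -0.52) with the correction. Its matched transcript is 27174 bases long, so this value leans on the fitted length trend, whose error the interval leaves out. GRK2, a kinase that turns off active receptors, had 197 and 148 CPM, and the arrestin ARRB2 263 and 263 CPM, a log2 ratio of -0.0017 that the correction made 0.17. CTSS, a cathepsin that can also release fractalkine, had 803 and 765 CPM.

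Over the 10 related lists, 97 of 108 further genes reached 1 CPM, and 3 passed the size rule as lower and 4 as higher, a share of 7.22% that is near the 5.77% of all loci compared. Other genes enriched in microglia were divided. Of 30 such genes, all compared, 2 passed the size rule as lower and 1 as higher, 19 had a ratio under 1 and the median log2 ratio was -0.28. Besides SELPLG, the lower gene was GPR183, an oxysterol receptor that guides cell migration, with 67.6 and 23.6 CPM. Adding the reads of the locus it overlaps moved its log2 ratio from -1.52 to -0.78. VSIG4, a complement receptor of resident macrophages, was higher, with 117 CPM in Control against 345 CPM (log2 ratio 1.55, 1.51 to 1.60). The purinergic receptor P2RY12, a hallmark of resting microglia, was scarce at 55 and 73 reads, and its log2 ratio of 0.51 (-0.020 to 1.04) includes equality. Its relative P2RY13 had 7.01 and 4.11 CPM, a log2 ratio of -0.77 (-1.07 to -0.48). The complement gene C1QB had 480 and 256 CPM, a log2 ratio of -0.91 within 2-fold, and the phagocytic kinase MERTK 208 and 221 CPM.

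Genes that supply and read TGF-β, the cytokine that sustains microglial identity, stayed within 2-fold with 1 exception. Of 15 genes, 12 lay above equality, and the median log2 ratio of the 15 was 0.16, or 0.13 with the GC and length trend removed. That correction turned the log2 ratios of ITGAV from 0.14 to -0.22, SMAD4 from 0.17 to -0.19 and SMAD2 from 0.015 to -0.83. The matched SMAD2 transcript is 34526 bases long, so its corrected value leans on the fitted length trend, whose error was not estimated. The other genes of the list kept their direction. The exception, past the size rule, was ITGB8, a chain of an integrin that activates latent TGF-β, with 3.67 CPM in Control against 10.5 CPM (log2 ratio 1.51, 1.23 to 1.80). The receptors TGFBR1, at 180 and 247 CPM, and TGFBR2, at 204 and 250 CPM, had log2 ratios of 0.46 and 0.29, which the correction made 0.13 and 0.20. NRROS, which presents latent TGF-β on microglia, had 98.6 and 76.6 CPM, and the signal transducer SMAD3 14.7 and 13.8 CPM, whose ratio interval includes equality. With the correction the log2 ratio of SMAD3 was -0.19 (-0.37 to -0.019), which does not.

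None of the 12 lineage transcription factors passed the size rule, and their median log2 ratio was 0.11; removing the GC and length trend made it -0.13. SPI1, which encodes PU.1, had 524 and 404 CPM and IRF8, its partner in microglial development, 157 and 135 CPM. MAF and ZEB2 had 344 and 508 CPM and 298 and 418 CPM. RUNX1, a factor of early blood development, had 69.8 and 73.5 CPM with an interval that includes equality; the GC and length correction moved its log2 ratio from 0.074 to -0.13.

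Partners and relatives of the other members gave 1 gene past the size rule in each of 3 lists. Among the 12 RAP1, talin and integrin partners of APBB1IP, ITGAM, the αM chain of complement receptor 3, was higher, with 138 CPM in Control against 473 CPM (log2 ratio 1.78, 1.74 to 1.83). The others stayed within 2-fold, among them its β chain ITGB2 at 1692 and 1896 CPM and TLN1, talin, at 741 and 781 CPM. Among the lysophosphatidylserine receptors and enzymes, P2RY10, a sister receptor of GPR34, was lower on 56 and 22 reads, and ABHD12, which degrades lysophosphatidylserine, had 279 and 177 CPM. In the transporter family of SLCO2B1, SLCO1A2 was higher, with 17 reads in Control against 108 (log2 ratio 2.76, 2.02 to 3.60), and SLCO1B1 had 0 reads in Control and 27 in PNU282987, 9.62-fold higher against a floor of 3 reads and below 1 CPM. SLCO1B3, SLCO1C1 and SLCO6A1 had 0 reads in both libraries. In the olfactomedin-like family none of the 6 genes compared passed, OLFML3 itself among them. OLFML2B, an extracellular matrix relative of OLFML3, had 151 and 84.8 CPM, a log2 ratio of -0.83 (-0.90 to -0.77). The actin bundler LCP1, L-plastin, which binds AIF1, had 2009 and 1317 CPM, and AIF1L, the relative of AIF1, had 13 and 18 reads.

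Some markers of other myeloid cells were lower together with CX3CR1, which blood monocytes express as well. Of the 8 monocyte markers, 3 passed the size rule as lower in PNU282987, against 2.81% of all loci compared. They were the chemokine receptor CCR2 at 5.49 and 1.89 CPM, the alarmin S100A12 at 22.8 and 10.7 CPM and CD300E, a monocyte activating receptor, at 3.41 and 0.795 CPM. Removing the GC and length trend brought S100A12 within 2-fold, from a log2 ratio of -1.09 to -0.97. The summed level of the 8 was 1067 and 747 CPM and their median log2 ratio -0.73, or -0.55 with that trend removed. Of the 8, 2 had a ratio above 1, among them VCAN, a matrix proteoglycan, at 81.3 and 119 CPM. CD14, which blood monocytes also carry, was higher in PNU282987, as given above. Of the 7 granulocyte and progenitor markers compared none passed, 6 had a ratio under 1 and the median was -0.63, or -0.46 with the trend removed. The 8 markers of border-associated macrophages, the macrophages of the brain's surfaces, had a median of -0.11 and none passed. The part of monocyte or granulocyte RNA in the CX3CR1 value was not tested.

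**Figure D4:**
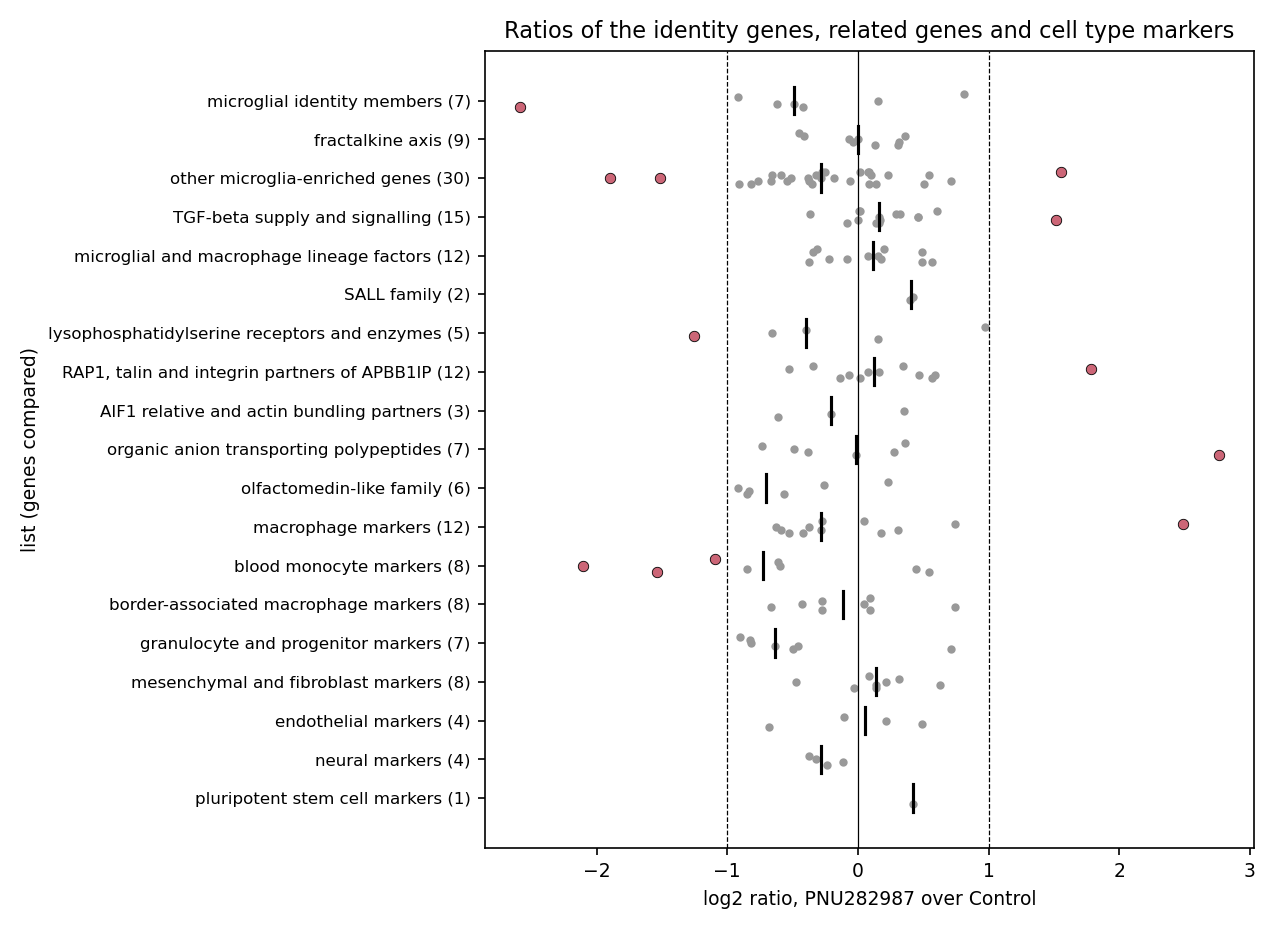
Log2 ratios of PNU282987 over Control for the microglial genes, the related lists and the marker lists, with 1 point per gene of at least 1 CPM, a black bar at each list's median and the number of genes compared in brackets. Red points passed the size rule and dashed lines mark 2-fold; CX3CR1 at -2.58 is the lowest point plotted.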

How the data were processed

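RNA was sequenced from 1 Control and 1 PNU282987 library, made with a stranded mRNA kit per the labels' protocols. The values are raw read counts for each locus as deposited, per the file headers. The submitters' processing notes name GRCh38, the aligner HISAT2 2.1.0, the assembler StringTie 2.1.3b, edgeR, Trimmomatic 0.38 and FastQC 0.11.7, without order, settings or use of strand. Loci with 2 reads outnumbered those with 1 read (958 against 818 in Control, 979 against 817 in PNU282987), so mates may have been counted singly, which would make the counting intervals too narrow.

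CPM were computed from the counts with TMM factors (edgeR 4.0.16, R 4.3.3), 0.991 for Control and 1.01 for PNU282987. The table held 46865 loci, of which 44560 matched a RefSeq position on GRCh38.p14. A single library per group allows no test across samples, so none was made. The size rule, named genes (members; list genes past the rule, at most 4, or the 2 with most reads; CX3CR1 partners; overlapping loci; the 5 genes nearest CX3CR1), 10 related gene lists and 8 marker lists were chosen with earlier results of these data known. Neighbouring genes and pairs of members were added after the values were seen, as were further list genes named as examples. Lengths and GC content come from GENCODE 29 transcripts, known for 94.1% of loci compared. The size rule was tested on simulated Poisson counts with planted changes. These hold no spread between cultures, so they cannot show how the rule acts on real cultures. Intervals and the floor of 3 reads cover counting error only. Alternatives covered scaling (DESeq2 1.42.0 size factors, upper quartile, unscaled totals, TMM over protein-coding loci), halved counts, overlapping loci, the GC and length trend, and thresholds. Statistics used SciPy 1.17.1 and statsmodels 0.14.6 in Python 3.11.15.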

Additional observations from a re-analysis of the deposited data

How the results depend on the processing

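CX3CR1 kept its direction and passed the size rule under all 8 other settings of scaling, counting, overlap and base composition, with log2 ratios from -2.63 to -2.56. Not all of these could have moved it. CX3CR1 overlaps no other locus, so the overlap settings return its main value, and halved counts act only through rounding and the refitted scaling. Under the same 8 settings the log2 ratio of each of the other 7 genes kept its sign and none passed the rule. The ranges of their log2 ratios were -0.63 to -0.48 for TMEM119, -1.40 to -0.90 for SALL1, 0.023 to 0.18 for GPR34, -0.92 to -0.79 for OLFML3, 0.81 to 0.88 for APBB1IP, -0.43 to -0.29 for AIF1 and -0.49 to -0.46 for SLCO2B1. The SALL1 interval included equality under every setting, and that of GPR34 did with the GC and length trend removed. Removing that trend moved GPR34, OLFML3, APBB1IP, AIF1 and SLCO2B1 outside their main counting intervals, as unscaled totals did for SLCO2B1. Of the 8 genes only GPR34 and SLCO2B1 overlap another locus, so the overlap settings could change no others. At a 1.5-fold threshold 3 of the 8 genes were lower and 1 higher, in place of 1 and 0. Among the 108 other list genes, 3 lower and 4 higher became 14 and 8 at 1.5-fold and 0 and 1 at 4-fold, and 2 were higher with a minimum of 10 CPM. Over all loci, 401 lower and 423 higher became 1053 and 1200 with no minimum, 141 and 181 with a minimum of 10 CPM, 1235 and 1252 at 1.5-fold, 60 and 106 at 4-fold, and 193 and 260 with the whole interval beyond 2-fold; these thresholds admit more or fewer loci by construction. SALL1 rests on 11 reads in all, so depth limits it. No library can be left out with a single one in each group. No paired analysis was possible because each group has 1 library and the comparison comes from no test.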
